A study of Homo sapiens with 2 samples.

Results

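The genes described here are those of mitosis, the kinesin motor family and the centromere, read in A549 cells after the p62/SQSTM1 mRNA had been silenced. They were chosen by symbol and by no value, though the families were picked with earlier results of these data known. A gene is a member if its symbol begins with that of an A- or B-type cyclin, a kinesin (KIF), a centromere protein (CENP), an Aurora kinase (AURK), BUB, a polo-like kinase (PLK), CDCA, a NIMA-related kinase (NEK) or a subunit of the anaphase-promoting complex (ANAPC), or if it is 1 of 14 further genes such as CDK1, TOP2A and MKI67. This gave 111 members of the 14884 genes with a single symbol in the platform annotation, and each was read by its row with the highest mean over both arrays. Of the 14 genes named singly, 4 (ANLN, ASPM, DLGAP5 and TPX2) had no such row and were not analysed here, and the same held for CENPE, CENPF, CENPB and CCNA1.

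A549 is a long-established line from a human lung adenocarcinoma. The siP62 array held RNA of A549 cells transfected with an siRNA (a small RNA duplex that guides the cleavage of mRNA of matching sequence) against p62/SQSTM1, a receptor of selective autophagy, and the siCONTROL array held RNA of A549 cells transfected with a control siRNA. Both RNAs were extracted at 24 hours, and 100 ng of total RNA was labelled for an Affymetrix whole-transcript array. Each siRNA was read on 1 array, so there was no replicate error, no test between the arrays and no p-value, and the sources used here do not give the number of siRNA sequences behind each label. The values were the submitters' log2 values, and every difference below is the siP62 value minus the siCONTROL value on that log2 scale.

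Mitosis is driven by CDK1 bound to A- and B-type cyclins, with the Aurora, polo-like and NEK kinases acting on centrosomes, spindle and chromosomes. Kinetochores, built on centromere chromatin, attach chromosomes to spindle microtubules. Until all are attached, the BUB and TTK checkpoint holds back the anaphase-promoting complex, the ubiquitin ligase that degrades cyclin B and securin. Kinesins are motors that move along or depolymerise microtubules; one subset works in the spindle and the other carries vesicles, organelles and ciliary cargo in cells at any stage. Most mitotic genes are transcribed in late S phase, G2 and M, so their mRNA is abundant in dividing cultures.

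SQSTM1 mRNA, which the siRNA targets, stood at 7.30 in siP62 cells, against 8.64 in siCONTROL cells, so that 39.5% of the control level was left. All 4 epithelial markers on the array (KRT8, KRT18, KRT19, EPCAM) were above the filter described next. Of 7 alveolar type II markers only SFTPB and SFTPD were, and SFTPC stood at 4.27 in both arrays. Of 2 leukocyte markers CD14 passed, with 5.94 in siP62 cells, against 5.98 in siCONTROL cells. The highest value of a fibroblast marker was 2.13 in siP62 cells, against 2.18 in siCONTROL cells, and that of an endothelial marker was 3.63 in siP62 cells, against 3.83 in siCONTROL cells.

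Genes were kept if the mean of their 2 values reached 5.35, the median of all named rows on the 2 arrays, which left 7650 genes (51.4%) and 89 of the 111 members. A gene near the limit can pass with 1 of its 2 values below it. Just inside this limit lay KIF21B, with 5.55 in siP62 cells, against 5.34 in siCONTROL cells, and just outside lay KIF27, with 5.37 in siP62 cells, against 5.12 in siCONTROL cells. All 89 kept members but KIF1B were read by 1 row.

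As a set, the mitosis, kinesin and centromere genes had nearly equal values in both arrays. NEK4 was the 1 kept member past 1.5-fold, beside a background of 1.86% of all kept genes higher and 1.5% lower. Over the 89 kept members the median difference was 0.02, beside 0.04 over all 7650 kept genes. The members' differences had a robust SD (from the median absolute deviation) of 0.21, beside 0.22 over all kept genes; it is a spread over genes and no error between replicates. Above 0 lay 46 members (51.7%) and below 0 lay 42 (47.2%), beside 55.5% and 41.7% of all kept genes. The direction of the set is not settled, since its median became -0.02 once the median of all kept genes was subtracted. A bulk RNA sample cannot tell fewer cells in mitosis from less mRNA per cell.

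**Figure D1:**
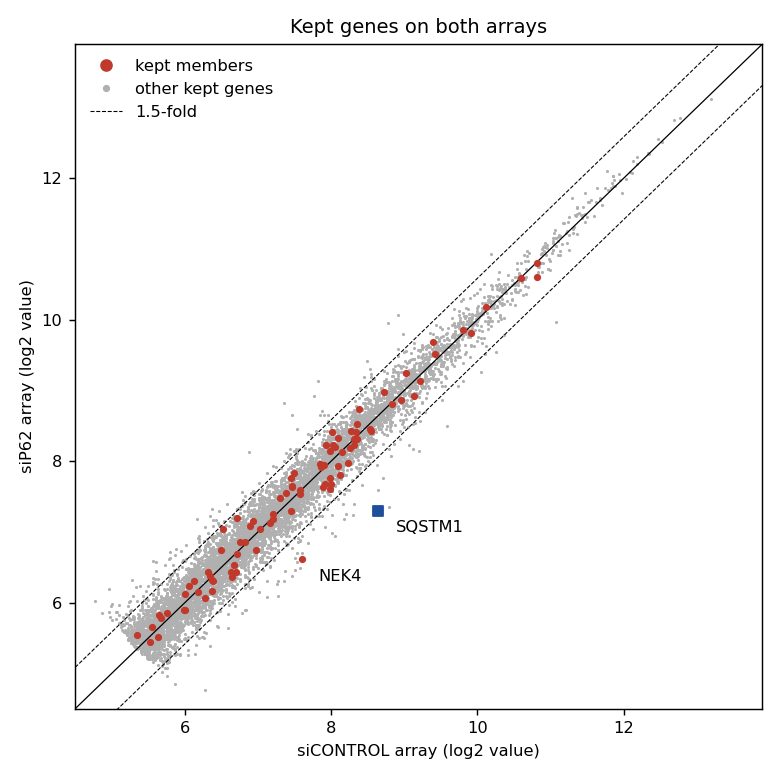
Log2 value in the siP62 array (y axis) against the siCONTROL array (x axis) for all 7650 kept genes; red points are the 89 kept members, grey points the other kept genes, the blue square SQSTM1. The solid line marks equal values and the dashed lines a 1.5-fold difference; NEK4 is the 1 member beyond them.

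No kept member was at least 1.5-fold higher in the siP62 array, beside a background of 1.86% of all kept genes, and 1 was at least 1.5-fold lower, beside a background of 1.5%. In the values as deposited none differed by 2-fold in either direction, beside a background of 0.157% higher and 0.235% lower. That count rests on the scaling, since NEK4 passed 2-fold lower after median centring, loess centring or quantile normalization (-1.02 in each). At a difference of 0.322 (log2) or more, 5 members were higher (CENPBD2P, CDCA7, KIF18A, CENPX and NEK9) beside a background of 10.7%, and 2 were lower (NEK4 and KIF21A) beside a background of 6.77%. Of the 89 members, 64 (71.9%) lay no further from 0 than the robust SD of genes of like level, beside 66.0% of all kept genes. That SD, taken in 20 bins of mean level, ran from 0.13 to 0.27.

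**Figure D2:**
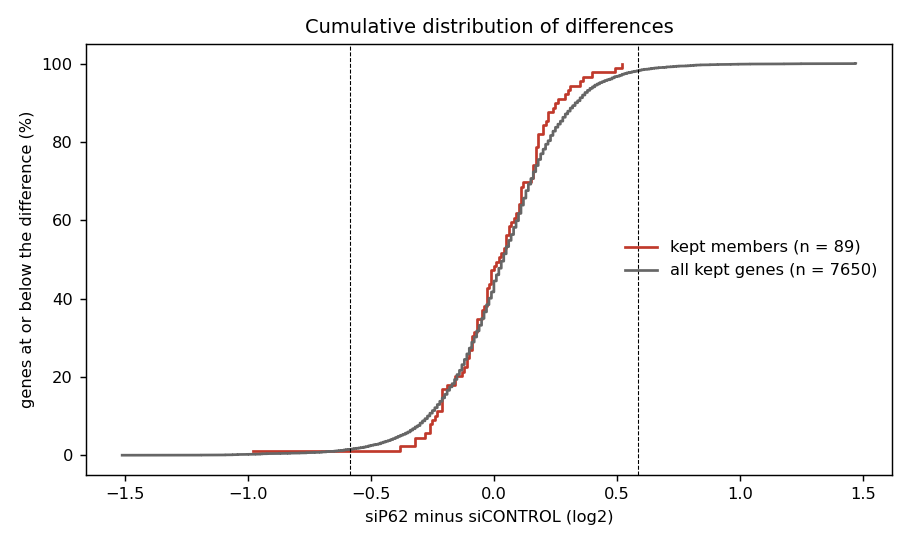
Cumulative share of genes (y axis, percent) at or below each siP62 minus siCONTROL difference (x axis, log2) for the 89 kept members (red) and all 7650 kept genes (grey), with dashed lines at 1.5-fold. Both curves cross 0 close together, with medians of 0.02 for the members and 0.04 for all kept genes, and the lone step at the far left of the red curve is NEK4 at -0.98.

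The promoter windows of the members were searched for a pair of short motifs, a property the choice by symbol did not use. The CHR (cell cycle genes homology region, TTTGAA) is bound by the MuvB core of the DREAM and MYBL2-FOXM1 complexes, and the CCAAT box (CCAAT) by NF-Y; both are textbook elements of G2 and M genes. RefSeq promoter windows of GRCh38.p14, from 250 bases before to 50 after the first listed start, were at hand for 78 of the 89 kept members. The 4 windows printed here run 5′ to 3′, with the letters of either motif on either strand in capitals. The windows of CDC20, with a difference above 0, and of CCNB2, with a difference below 0, hold both motifs. That of CCNB1 holds CCAAT but not the exact letters TTTGAA. That of NEK4, the member with the largest difference, holds neither. The CDC20 window lies at chr1:43358731-43359030 on the plus strand, CCNB1 at chr5:69166900-69167199 on the plus strand, CCNB2 at chr15:59104896-59105195 on the plus strand and NEK4 at chr3:52770891-52771190 on the minus strand.
CDC20: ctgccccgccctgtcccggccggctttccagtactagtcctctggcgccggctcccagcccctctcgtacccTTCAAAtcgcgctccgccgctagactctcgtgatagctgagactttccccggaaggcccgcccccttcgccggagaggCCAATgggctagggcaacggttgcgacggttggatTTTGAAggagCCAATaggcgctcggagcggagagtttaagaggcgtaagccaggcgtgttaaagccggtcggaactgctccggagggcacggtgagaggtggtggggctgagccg
CCNB1: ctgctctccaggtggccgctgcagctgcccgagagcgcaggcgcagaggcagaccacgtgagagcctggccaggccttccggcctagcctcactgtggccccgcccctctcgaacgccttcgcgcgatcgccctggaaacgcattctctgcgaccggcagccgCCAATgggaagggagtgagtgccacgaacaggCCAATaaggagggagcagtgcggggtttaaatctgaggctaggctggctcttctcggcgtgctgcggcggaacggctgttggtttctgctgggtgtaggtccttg
CCNB2: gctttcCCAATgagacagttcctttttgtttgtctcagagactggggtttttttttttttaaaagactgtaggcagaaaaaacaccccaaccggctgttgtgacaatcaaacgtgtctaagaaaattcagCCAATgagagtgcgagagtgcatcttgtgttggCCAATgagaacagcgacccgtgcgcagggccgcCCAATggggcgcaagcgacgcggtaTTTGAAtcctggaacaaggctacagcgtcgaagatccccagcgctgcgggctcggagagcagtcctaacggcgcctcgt
NEK4: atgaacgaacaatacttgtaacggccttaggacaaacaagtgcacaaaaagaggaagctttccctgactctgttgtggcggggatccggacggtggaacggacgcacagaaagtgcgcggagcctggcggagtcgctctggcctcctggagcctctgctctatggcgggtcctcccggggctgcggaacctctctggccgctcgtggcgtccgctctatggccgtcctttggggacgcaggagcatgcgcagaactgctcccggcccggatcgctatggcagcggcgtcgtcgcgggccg

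In CCNB2 the TTTGAA began 29 bases before the start and the nearest of 4 CCAAT matches 54 bases before it. In CDC20 a TTTGAA began 65 bases before the start, beside CCAAT at 100 and 55 bases, and a second match lay on the opposite strand. TTTGAA, searched on both strands, occurred in 31 of the 78 member windows (39.7%), beside 12.1% of the 15843 protein-coding windows and 15.4% of all 27305 windows of the same length. CCAAT occurred in 44 (56.4%), beside 36.4% of protein-coding and 35.7% of all windows. Both occurred in 24 member windows (30.8%), beside 5.02% of protein-coding and 6.08% of all windows. The letters of the motifs overlapped each other in 2 of the member windows. The member windows are those of genes that passed the filter, while the comparison windows were not filtered. The shares among all kept genes were not computed, so whether the members differ from other kept genes was not tested. All 5 windows of the spindle, chromosome and cytokinesis genes held both, as did 8 of the 13 of the mitotic kinesins, whereas 1 of 13 windows of transport, ciliary and other kinesins held TTTGAA. The median difference between the arrays was 0.00 for the 31 members with TTTGAA and 0.03 for the 47 without it. Only these exact letters were searched, so a window counted as without TTTGAA may hold a variant of the element. A match of letters is a description of the window and no evidence of binding.

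**Figure D3:**
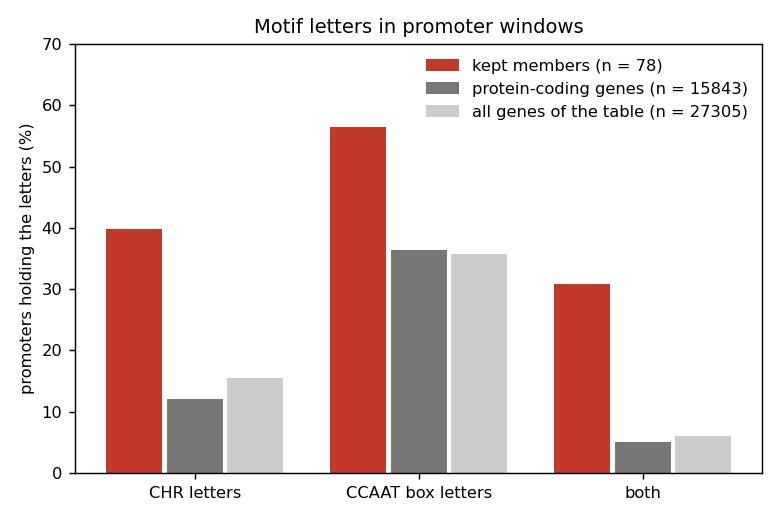
Share of promoter windows (y axis, percent) that hold TTTGAA (CHR), CCAAT or both, for kept members (red), protein-coding genes (dark grey) and all genes of the RefSeq table (light grey). TTTGAA is in 39.7% of member windows, beside 12.1% of protein-coding windows, which were not filtered by level.

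Among the engines of mitotic entry, the kept A- and B-type cyclins and CDK1 differed by at most 0.24. CCNA2, cyclin A2 of S and G2 phase, had 9.25 in siP62 cells, against 9.03 in siCONTROL cells. CCNB1, the main cyclin of CDK1 in mitosis, had 8.33 in siP62 cells, against 8.09 in siCONTROL cells. CDK1 itself had 7.96 in siP62 cells, against 7.85 in siCONTROL cells. These 3 genes were slightly higher in the siP62 array, while CCNB2, the Golgi-associated B-type cyclin, lay on the other side with 7.77 in siP62 cells, against 7.98 in siCONTROL cells. The group's median difference over the 4 kept genes was 0.165. The robust SD of genes of like level was 0.19 for CCNA2, CDK1 and CCNB2 and 0.21 for CCNB1. Counted from 0, CDK1 lay within it and the 3 cyclins just beyond it. Once the median of all kept genes was subtracted, CCNA2 (0.18) and CCNB1 (0.20) lay within it and CCNB2 (-0.25) beyond it. CCNB3 was below the filter.

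The Aurora and polo-like kinases had a median difference of -0.01 over 7 kept genes. PLK1, which drives centrosome maturation and mitotic exit, had 10.59 in siP62 cells, against 10.60 in siCONTROL cells. AURKB, the kinase of the chromosomal passenger complex, had 9.51 in siP62 cells, against 9.42 in siCONTROL cells. AURKA, the centrosomal Aurora kinase, was the member of this group with the largest difference, with 8.23 in siP62 cells, against 7.93 in siCONTROL cells, or 1.23-fold higher. PLK2 and PLK3, stress-responsive relatives that are not mitotic engines, differed by -0.01 and -0.08. PLK4, the kinase that licenses centriole duplication, differed by 0.10 and AURKC, the germ cell Aurora kinase, by -0.09.

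NEK4, a NIMA-related kinase linked to the DNA damage response and to primary cilia, had the largest difference of all kept members. NEK4 stood at 6.62 in siP62 cells, against 7.60 in siCONTROL cells, a 1.97-fold lower level with a difference of -0.98. Only 19 of all 7650 kept genes had a difference below that, and genes at its level had a robust SD of 0.23. NEK4 was read by 1 row, so no further row of the gene could be set beside it. Its difference ran from -1.02 to -0.98 over the scaling alternatives.

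The other 6 kept NEK kinases lay between -0.04 and 0.35. NEK9, which activates NEK6 and NEK7 at the start of mitosis, had 7.84 in siP62 cells, against 7.49 in siCONTROL cells. NEK7 had 6.75 in siP62 cells, against 6.50 in siCONTROL cells. NEK6, the other substrate of NEK9, had 7.19 in siP62 cells, against 7.20 in siCONTROL cells. NEK9 and NEK7 thus lay above their control values and NEK6 was level with it. NEK2, which splits centrosomes at mitotic entry, differed by -0.04, the ciliary kinase NEK8 by 0.12 and NEK11 of the DNA damage checkpoint by 0.11. NEK3 lay below the filter with 4.69 in siP62 cells, against 3.68 in siCONTROL cells; whether either value is above background is not known, so it gets no fold. With the limit at the 70th percentile the group's median moved to -0.025 over 4 genes, from 0.11 over 7.

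The spindle assembly checkpoint and the anaphase-promoting complex had 13 kept genes with a median difference of 0.07, of which 10 were above 0 and 3 below (backgrounds 55.5% and 41.7%). The median was 0.03 once that of all kept genes was subtracted. Among the checkpoint kinases, BUB1 had 8.14 in siP62 cells, against 7.98 in siCONTROL cells. BUB1B, the BubR1 subunit of the mitotic checkpoint complex, had 7.04 in siP62 cells, against 7.03 in siCONTROL cells. TTK (MPS1), which starts checkpoint signalling at kinetochores, differed by 0.08, and BUB3, the adaptor of BUB1 and BubR1, by -0.10. CDC20, the activator of the complex and the target of the checkpoint, had 8.98 in siP62 cells, against 8.72 in siCONTROL cells, or 1.20-fold higher.

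Subunits of the anaphase-promoting complex itself were spread from -0.05 to 0.31. The scaffold subunits ANAPC1 and ANAPC5 differed by 0.20 and 0.07, and the small subunit ANAPC15 by 0.04. In the catalytic module, the cullin-like ANAPC2 differed by 0.10 and the RING subunit ANAPC11 by -0.03. In the arm of repeat proteins, ANAPC7 differed by 0.05, ANAPC16 by -0.05 and ANAPC13 by 0.31, the last with 7.76 in siP62 cells, against 7.45 in siCONTROL cells. ANAPC1 has near-identical pseudogenes: ANAPC1P2 had 7.68 in siP62 cells, against 8.00 in siCONTROL cells, opposite in direction to ANAPC1, and how far the probes of both tell them apart was not tested. ANAPC4, ANAPC10 and PTTG1, which encodes securin, were below the filter.

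**Figure D4:**
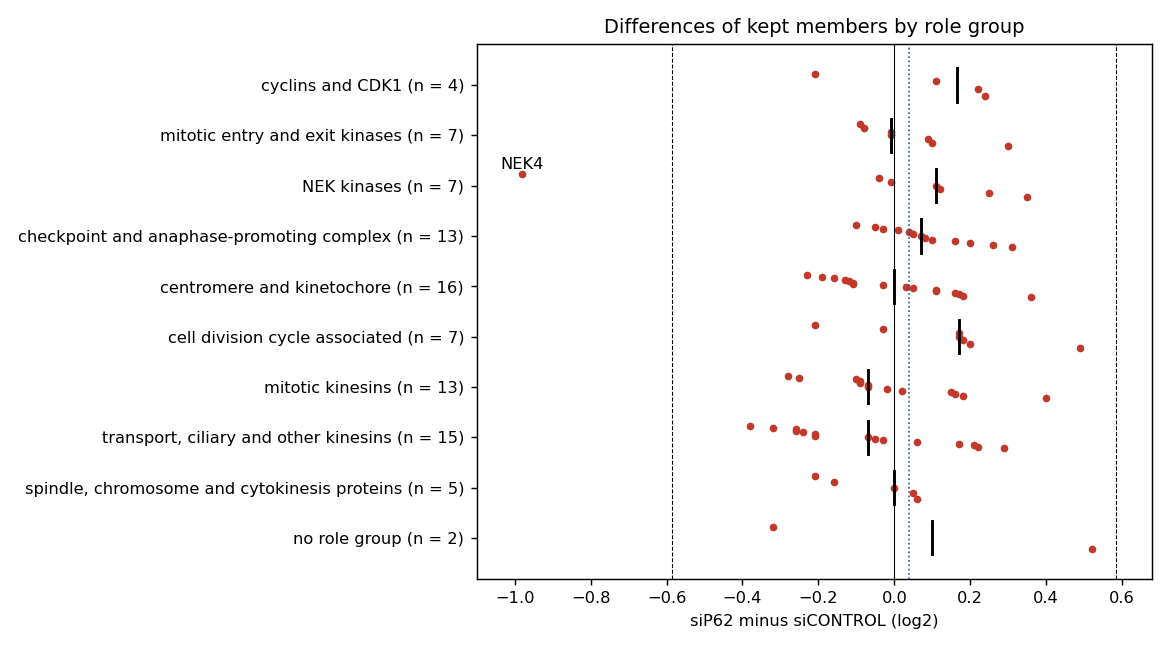
Differences (x axis, siP62 minus siCONTROL, log2) of the 89 kept members by role group; each red point is 1 gene, the black bars are group medians, the dotted line the median of all kept genes (0.04) and the dashed lines 1.5-fold; the last row holds the pseudogenes CENPBD2P and ANAPC1P2. All points but NEK4 lie inside the dashed lines, and group medians run from -0.07 for both kinesin groups to 0.17 for the CDCA genes.

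Centromere and kinetochore genes were split evenly, with 8 of 16 kept genes above 0, 8 below (backgrounds 55.5% and 41.7%), and a median of 0.00. CENPA, the histone H3 variant that marks centromere chromatin, had 7.25 in siP62 cells, against 7.20 in siCONTROL cells. NDC80, the microtubule-binding subunit of the outer kinetochore, had 5.78 in siP62 cells, against 5.67 in siCONTROL cells. Both genes lay within the robust SD of genes of like level.

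Subunits of the inner kinetochore network lay on both sides of 0. CENPX, a histone-fold protein that also serves in the Fanconi anaemia pathway, had the largest difference of the group, with 8.74 in siP62 cells, against 8.38 in siCONTROL cells. Its partners CENPT and CENPW differed by 0.11 and 0.17, both within the robust SD of 0.22 of genes of like level. All 3 measured subunits of this histone-fold complex were thus above 0, beside a background of 55.5%. Of the CENP-O group, CENPO differed by -0.16, CENPP by -0.03, CENPQ by 0.03 and CENPU by -0.19. Of the CENP-H group, CENPI differed by 0.18, CENPK by -0.23 and CENPM by -0.13, and CENPH was below the filter with 5.52 in siP62 cells, against 4.95 in siCONTROL cells. CENPN and CENPL, which together read CENP-A chromatin, differed by 0.16 and -0.11. CENPC, the backbone of the network, differed by -0.12, and CENPV, which is needed for centromere organisation, by -0.11.

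The CDCA genes, named for their expression with the cell division cycle and of unrelated function, had a median difference of 0.17 over 7 genes, of which 5 were above 0 (background 55.5%). CDCA7, a chromatin factor that recruits the remodeller HELLS, had the largest difference, with 7.20 in siP62 cells, against 6.71 in siCONTROL cells, or 1.40-fold higher. Its relative CDCA7L differed by 0.17. CDCA8 (borealin), a subunit of the passenger complex with AURKB, differed by 0.18, while BIRC5 and INCENP, the other subunits of that complex, differed by 0.19 and 0.10. CDCA2, which brings a phosphatase to anaphase chromatin, differed by 0.17, and CDCA4 by 0.20. CDCA3, which promotes mitotic entry through WEE1 degradation, lay at -0.21 and CDCA5 (sororin), the protector of cohesin, at -0.03.

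Kinesins were set apart from the other members after the values had been seen. They made up 28 of all 89 kept members, 7 of the 10 with the lowest differences and 2 of the 10 with the highest. KIFC1, KIFC2 and KIFC3, kinesins outside the chosen symbols, are not counted here and differed by -0.13, 0.18 and -0.02. Of the 28 kept kinesin genes, 18 were below 0 and 10 above (backgrounds 41.7% and 55.5%), with a median of -0.07, while the other 61 kept members had a median of 0.05, with 24 below 0, 36 above and 1 equal. No kinesin differed by 1.5-fold, and the medians of the spindle kinesins and of the transport, ciliary and other kinesins were both -0.07.

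Of the 13 spindle kinesins, KIF18A, the kinesin-8 that dampens chromosome movement at metaphase, had the highest difference, with 8.41 in siP62 cells, against 8.01 in siCONTROL cells, or 1.32-fold higher. KIF20A (MKLP2), which carries the passenger complex to the midzone, had 7.98 in siP62 cells, against 8.23 in siCONTROL cells. KIF11 (Eg5), which pushes spindle poles apart, had 9.14 in siP62 cells, against 9.21 in siCONTROL cells. KIF23 (MKLP1), the motor of the central spindle and midbody, had 9.81 in siP62 cells, against 9.91 in siCONTROL cells. KIF11 and KIF23 both lay within 0.10 of their control value. The microtubule depolymerases KIF2A and KIF2C differed by 0.18 and 0.16, and the chromosome-bound KIF22 by 0.15. KIF14, KIF15, KIF18B and KIF20B lay between -0.09 and -0.02. KIF4A, which shortens the midzone, differed by 0.02, and its near-identical retrocopy KIF4B by -0.28; how far their rows share signal was not tested.

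Of the 15 transport, ciliary and other kinesins, 10 were below 0 (background 41.7%). KIF21A, a kinesin-4 that restrains microtubule growth in neurons, had 7.61 in siP62 cells, against 7.99 in siCONTROL cells, or 1.30-fold lower. KIF13A and KIF16B, motors of recycling and early endosomes, were also on the lower side: KIF13A had 7.80 in siP62 cells, against 8.12 in siCONTROL cells. KIF16B had 7.68 in siP62 cells, against 7.92 in siCONTROL cells. KIF24, which restrains the outgrowth of cilia from centrioles, had 6.44 in siP62 cells, against 6.70 in siCONTROL cells. KIF1B, a motor of mitochondria and synaptic vesicle precursors, was read by 2 rows, which differed by -0.26 and -0.17. Among 229 genes with more than 1 row above the limit, the median span between rows of a gene was 0.12.

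KIF5B, the ubiquitous heavy chain of kinesin-1, had 10.60 in siP62 cells, against 10.81 in siCONTROL cells. Among its light chains, KLC1 differed by 0.08, KLC2 by -0.08 and KLC4 by -0.54, the last with 5.16 in siP62 cells, against 5.70 in siCONTROL cells and so partly below the filter limit. In kinesin-2, which carries cargo into cilia, KIF3A differed by 0.22, KIF3B by -0.07, KIF3C by -0.03 and their adaptor KIFAP3 by -0.17. KIF1C, a motor of Golgi and integrin vesicles, went the other way from KIF1B, with 9.69 in siP62 cells, against 9.40 in siCONTROL cells. KIF7 of the Hedgehog pathway, KIF12, KIF13B, KIF21B and KIF26A ran from -0.21 to 0.21.

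The proteins of the spindle, the chromosomes and cytokinesis, which serve as proliferation markers, had a median difference of 0.00 over 5 genes. TOP2A, which untangles sister DNA, had 10.81 in both arrays. MKI67, the Ki-67 antigen, had 10.18 in siP62 cells, against 10.12 in siCONTROL cells. ECT2, the exchange factor that starts the cleavage furrow, had 9.86 in siP62 cells, against 9.81 in siCONTROL cells. These 3 genes were level within 0.06. The microtubule bundler NUSAP1 differed by -0.21 and the spindle and hyaluronan-binding protein HMMR by -0.16.

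**Figure D5:**
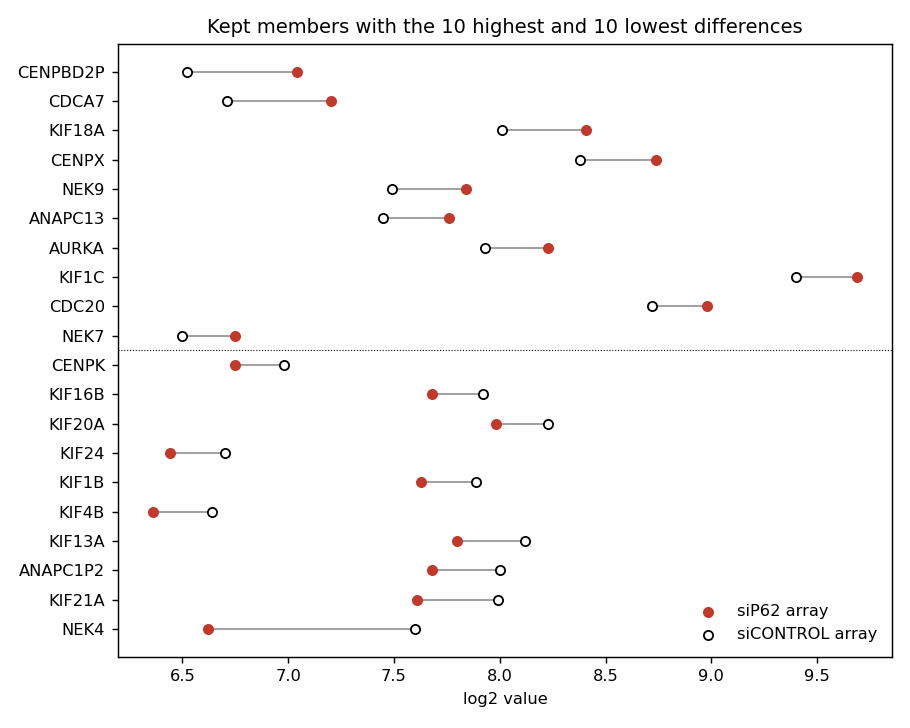
Log2 values (x axis) in the siP62 array (red) and the siCONTROL array (open) of the kept members with the 10 highest (above the dotted line) and the 10 lowest differences. NEK4 has the widest gap, with 6.62 in siP62 cells, against 7.60 in siCONTROL cells. Kinesins make up 7 of the 10 lowest and 28 of the 89 kept members. They were set apart after the values had been seen.

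The kept member with the highest difference does not encode a centromere protein. It is CENPBD2P, a pseudogene named for the DNA-binding domain of CENP-B, which had 7.04 in siP62 cells, against 6.52 in siCONTROL cells, or 1.43-fold higher. The 22 members below the filter were KIF1A, KIF2B, KIF5A, KIF5C, KIF6, KIF9, its antisense RNA KIF9-AS1, KIF17, KIF19, KIF25, KIF26B, KIF27, NEK3, NEK5, NEK10, ANAPC4, ANAPC10, ANAPC1P1, PTTG1, PLK5, CCNB3 and CENPH. Over all 111 members without the filter the median difference was 0.01, beside 0.00 over all 14884 genes.

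Mitotic genes outside the chosen symbols were described in 4 further lists. They held 72 kept genes, of which 2 passed 1.5-fold upward and none downward (backgrounds 1.86% and 1.5%), and their median was 0.04, the same as over all kept genes. Among the G2 to M regulators (median 0.06 over 23 genes), the CDK subunit CKS2 had 9.67 in siP62 cells, against 9.14 in siCONTROL cells, the phosphatase CDC25A differed by 0.32 and CDC25C by -0.31; FOXM1 and MYBL2, transcription factors of the mitotic programme, each differed by 0.16. Among condensin and cohesin genes (median 0.02 over 15), STAG2, a cohesin subunit, had 8.27 in siP62 cells, against 7.68 in siCONTROL cells and its paralogue STAG1 differed by 0.38, with the cohesin protector SGO1 at 0.28. Of the listed condensin genes only SMC2 and SMC4 had a row, so that median is mostly one of cohesin genes. Among other kinetochore and checkpoint genes (median 0.08 over 16), MIS18A, which licenses CENP-A loading, had 6.87 in siP62 cells, against 6.26 in siCONTROL cells, SPAG5 (astrin) differed by -0.32 and MAD1L1 by -0.28. Among other spindle, centrosome and cytokinesis genes (median -0.02 over 18), the abscission protein CEP55 had 8.06 in siP62 cells, against 8.53 in siCONTROL cells, CKAP2L differed by -0.33 and TRIP13 by 0.31. The kinesin partners and dynein cofactors (dynactin subunits, NDE1 and NDEL1) had a median of 0.00 over 12, with DCTN5 at -0.21 and NDE1 at -0.19 next to KLC4. None of the listed subunits of dynein itself had a row, so dynein was not read.

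S phase genes, the nearest stage of the cycle, are set beside them for scale. Their 23 kept genes had a median of 0.11, with 17 above 0 and 5 below (backgrounds 55.5% and 41.7%), and 2 (GINS3 and GINS4, subunits of the replicative helicase, each at 0.63) passed 1.5-fold upward (background 1.86%). CCNE1, the G1 to S cyclin, differed by 0.55. With 1 array per siRNA, whether S phase and mitotic genes differ from each other could not be tested.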

How the data were processed

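Log2 values of 48226 probe sets on 2 arrays were used as deposited; per the submitters' processing notes they come from RMA and from Transcriptome Analysis Console 4.0.2.15. Where RMA makes arrays alike, a shift of all genes is not seen. The sources used here give neither the arrays that entered that step nor the genome build. Detection calls were not used, and precision is limited by the number of arrays.

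The platform annotation gave 1 symbol for 16098 probe sets; the other 32128 were not used. All 111 members matched the RefSeq table by gene identifier. A gene was kept if its mean was at or above the median of the named rows (5.35). Differences, counts past 0.322 (log2), 1.5-fold and 2-fold, medians and robust SDs in 20 level bins were computed with pandas 2.3.3 and numpy 2.4.6, the loess with statsmodels 0.14.6. The counting was tested on simulated data, with planted differences larger than that of any kept member in the values as deposited. That run checks the counting and not the differences reported here. Promoter letters came from RefSeq (GRCh38.p14), first listed start of each gene. The members and lists were chosen with earlier results of these data known. Named with both values are members past 0.322, the 10 highest and lowest, and core mitotic genes, though some are given by their difference alone. From other lists, the 3 largest absolute differences are named. FOXM1, MYBL2, BIRC5, INCENP, KLC1, KLC2, KIFAP3, KIFC1, KIFC2 and KIFC3 were named in addition, outside that rule.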

Additional observations from a re-analysis of the deposited data

How the results depend on the processing

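The alternatives were centring on the median difference, centring on a loess curve, quantile normalization of both columns, the mean over a gene's rows, no filter, a limit at the 70th percentile, and a filter on the higher of the 2 values. Of 91 medians and counts under them (of the members, their role groups and all kept genes), 89 kept their size within 0.1 (log2), or within 1.5 times for counts. The exceptions were the count of members at least 1.5-fold higher, 1 without a filter (NEK3, whose values are not known to be above background, so the size of its difference is uncertain), and the median of the NEK kinases, -0.025 at the 70th percentile. The median of all members was -0.02 after subtraction of the median difference, -0.029 after the loess and -0.015 after quantile normalization. Under centring, quantile normalization or the mean over rows, no single member moved by more than 0.05, and at most 4 of 89 changed sign, under the loess. Those alternatives therefore could not move a median of the members past 0.1. NEK4 stayed the 1 member at least 1.5-fold lower throughout. It also passed 2-fold lower after median centring, loess centring or quantile normalization, with -1.02 in each, but not in the values as deposited (-0.98). No paired analysis was possible because each siRNA was read on 1 array. With 1 array per siRNA, a gene's difference cannot be told apart from variation between arrays.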
